A study of Mus musculus with 12 samples.

Results

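The lipid-sensing regulators followed here in the adrenal cortex of mice on 3 diets were 10 genes, namely the fatty acid receptors *Ppara*, *Ppard* and *Pparg*, their shared partner *Rxra*, the oxysterol receptors *Nr1h2* and *Nr1h3*, the lipogenic transcription factors *Srebf1* and *Mlxipl*, and the coactivators *Ppargc1a* and *Ppargc1b*. They were chosen by name as the regulators that connect lipid supply to transcription, and all 10 were found among the 49585 genes of the count files. RNA was sequenced from 12 male mice, 1 library per mouse. The comparison of diets asked how obesity, and icosapent ethyl given on top of it, changed the transcripts of the adrenal cortex. The 4 ND mice received the normal diet of the labels, which the study describes as a low-fat diet with 10% of its energy from fat. The 4 HFD mice received a high-fat diet with 60% of its energy from fat, and both diets were fed for 20 weeks from an age of 6 weeks. The 4 Vasc mice received the high-fat diet for the same 20 weeks, with icosapent ethyl, a purified ethyl ester of the omega-3 fatty acid EPA, mixed into it for the last 10. The labels give the genotype Fads2-/- for all 12 mice, whereas the study describes wild-type C57BL/6J males, and *Fads2* was expressed in every library at 452 to 2181 CPM (counts scaled to the size of the library).

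PPARs bind fatty acids and their derivatives, LXRs (*Nr1h2*, *Nr1h3*) bind oxidized cholesterol, and both act on DNA as heterodimers with RXR. SREBP-1c, encoded by *Srebf1*, and ChREBP, encoded by *Mlxipl*, switch on fatty acid synthesis in response to insulin and to glucose, while the PGC-1 coactivators raise mitochondrial and fatty acid oxidation programmes. The cells of the adrenal cortex store cholesterol esters in lipid droplets and use them for steroid synthesis.

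Reads on genes summed to 34785979 to 67295963 per library. Counting error alone was at most 3.59% of the level in any library for *Ppard*, *Rxra*, *Nr1h2*, *Nr1h3* and *Srebf1*, but 6.73% to 11.6% for *Ppara*, *Pparg* and *Mlxipl*, and at least 12.4% for the coactivators. The 10 adrenocortical markers were present in every library, with summed levels of 49730 to 79740 CPM in ND, 62370 to 111400 CPM in HFD and 65690 to 103200 CPM in Vasc mice. Other cell types were also represented. Chromaffin cell markers of the medulla summed to 6174 to 21790 CPM in ND, 2980 to 9633 CPM in HFD and 5341 to 10550 CPM in Vasc mice, and adipocyte markers to 251 to 447, 383 to 497 and 335 to 493 CPM. In bulk tissue, fewer cells of a type and less RNA per cell cannot be told apart.

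Levels per kilobase of exon, averaged over the 12 libraries, placed the members in 4 tiers. *Srebf1* (33.4 ± 5.26 CPM per kb, SD, n = 12) and *Nr1h2* (26.7 ± 2.40) were at the top, followed by *Rxra* (12.2 ± 1.66), *Ppard* (11.9 ± 5.85) and *Nr1h3* (8.62 ± 0.523). *Ppara* (0.809 ± 0.178), *Pparg* (0.779 ± 0.121) and *Mlxipl* (0.709 ± 0.0977) were about an order of magnitude lower. The coactivators *Ppargc1a* (0.119 ± 0.0425) and *Ppargc1b* (0.0811 ± 0.0512) were the lowest, with 15 to 65 and 4 to 37 reads per library. The ranges of neighbours in this order did not overlap at 3 places only, namely between *Nr1h2* and *Rxra*, between *Nr1h3* and *Ppara*, and between *Mlxipl* and *Ppargc1a*. The top tier was still not clear of the next, since *Ppard* reached 21.5 CPM per kb and the lowest *Nr1h2* library had 20.2. *Ppard* was thus the predominant PPAR transcript in this tissue, and *Nr1h2*, which encodes LXRβ, the predominant LXR.

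**Figure D1:**
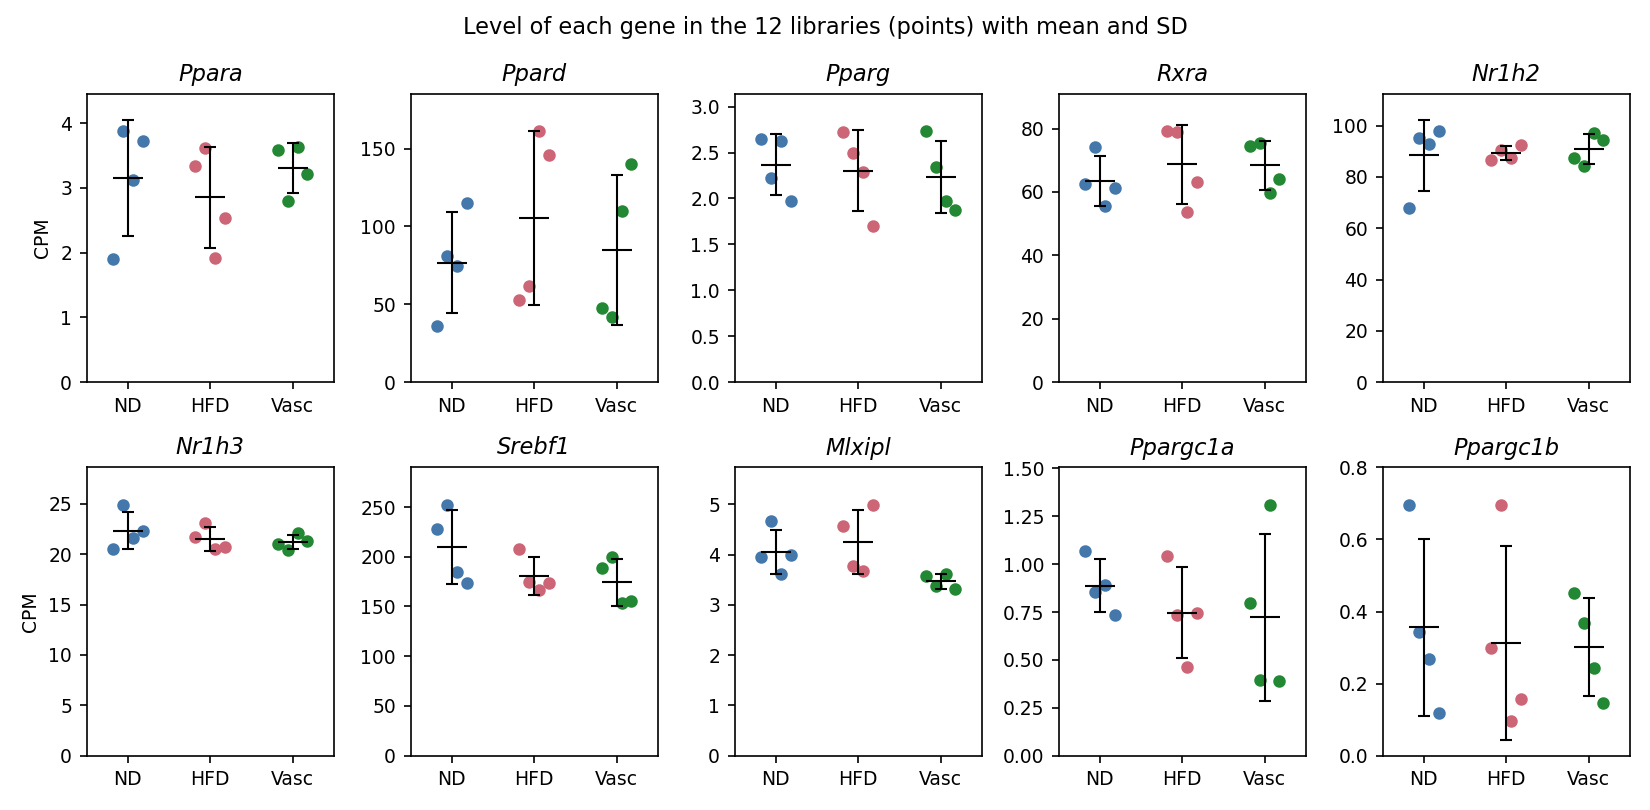
Level of each of the 10 genes in CPM (vertical axis, from 0) in the ND, HFD and Vasc libraries, with points for single mice and bars for the mean and SD of 4 mice. The groups overlap for every gene except *Mlxipl*, whose 4 Vasc libraries (3.31 to 3.61 CPM) lie below all HFD libraries, and *Ppard* spans 36.2 to 161 CPM, with low and high mice in every group.

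None of the 10 members passed an adjusted p of 0.05 in any comparison (quasi-likelihood test of edgeR, adjusted by Benjamini-Hochberg over all genes tested, as for all adjusted p-values below). In HFD versus ND mice, 1.45% of the 15909 genes tested passed, 13.5% had groups that did not overlap, and neither was true of any member. The 10 members had a median log2 fold change of -0.06, and all genes tested had one of -0.01. With DESeq2, which called 12.9% of all genes, no member passed either. In Vasc versus HFD mice, edgeR called 0% of 15913 genes at this threshold (221 genes had an unadjusted p below 0.05, and DESeq2 called 6), and groups did not overlap for 1.14% of genes and for 1 of the 10 members. In Vasc versus ND mice, edgeR again called 0% of 15935 genes (2225 genes had an unadjusted p below 0.05, and DESeq2 called 477), and groups did not overlap for 7.73% of genes and for 0 members. The 3 comparisons share libraries and are not independent of each other.

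Among the fatty acid receptors, *Ppara* (chr15:85734983-85802819 of the GRCm38 build, plus strand), the PPAR best known for fatty acid oxidation, was scarce. It had 1.90, 3.88, 3.12 and 3.73 CPM in ND mice, 3.34, 3.62, 1.92 and 2.53 CPM in HFD mice, and 3.58, 2.79, 3.63 and 3.21 CPM in Vasc mice. A low library in ND and in HFD made the spread, and the groups overlapped. Its log2 fold change was -0.15 ± 0.28 (SE) in HFD versus ND mice (edgeR, adjusted p = 0.789), with a 95% confidence interval from a 0.581-fold to a 1.41-fold level.

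*Pparg* (chr6:115360951-115490399, plus strand), the PPAR that drives adipocyte differentiation, was equally low. It measured 2.65, 2.23, 2.63 and 1.97 CPM in ND mice, 2.72, 2.496, 2.29 and 1.70 CPM in HFD mice, and 2.73, 2.34, 1.98 and 1.87 CPM in Vasc mice. The groups covered nearly the same range, and their means (2.37, 2.30 and 2.23 CPM) differed by less than the SD within any group. The interval for HFD versus ND mice ran from 0.689-fold to 1.35-fold (log2 fold change -0.05 ± 0.22, edgeR adjusted p = 0.909).

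*Ppard* (chr17:28232700-28301474, plus strand), a PPAR found in most tissues, was the abundant one and by far the most variable of the well-expressed members. It measured 36.2, 81.2, 74.8 and 115 CPM in ND mice, 52.6, 61.9, 161 and 146 CPM in HFD mice, and 47.5, 41.9, 110.1 and 140.2 CPM in Vasc mice. In both HFD and Vasc groups the libraries numbered 1 and 2 were low and those numbered 3 and 4 were high, and the 3 groups overlapped almost entirely. The labels name no batch for these numbers. Its SD within groups was 0.80 on the log2 scale, larger than that of 96.6% of genes with a mean of at least 1 CPM, whose median was 0.23. The log2 fold change in HFD versus ND mice was 0.45 ± 0.43 (edgeR, adjusted p = 0.543), and the interval from 0.703-fold to 2.67-fold leaves changes of either sign within the error. In Vasc versus HFD mice it was -0.31 ± 0.49 (edgeR, adjusted p = 0.9997), with an interval from 0.374-fold to 1.74-fold. The Vasc library was lower than the HFD library of the same number in 4 of 4 pairs, and the value with the replicate number as a block was -0.33 (edgeR, adjusted p = 0.889). With the macrophage markers as a covariate the HFD versus ND value became 1.31, and without HFD replicate 3 it became 0.19, neither past the threshold.

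The stretch of genome upstream of *Ppard* is shown because this gene varied most among mice of the well-expressed members, and that upstream of *Mlxipl* because it was the member whose Vasc and HFD libraries did not overlap. RefSeq (GRCm38.p6) gave promoter windows of 300 bases for 9 of the 10 members, and the bases before both the RefSeq start and the GENCODE gene start are printed, in the direction of the gene. Capitals mark GC boxes, whose searched letters were GGGCGG. They also mark the CCAAT box, which in these windows lies on the opposite strand. The last motif in capitals is an E-box, searched as CACGTG. Each motif was searched on both strands.
Ppard, chr17:28232504-28232699, plus strand: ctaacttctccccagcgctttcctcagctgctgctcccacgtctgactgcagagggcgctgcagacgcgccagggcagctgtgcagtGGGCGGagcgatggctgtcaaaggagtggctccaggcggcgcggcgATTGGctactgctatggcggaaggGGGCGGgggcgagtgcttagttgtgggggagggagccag
Mlxipl, chr5:135089640-135089889, plus strand: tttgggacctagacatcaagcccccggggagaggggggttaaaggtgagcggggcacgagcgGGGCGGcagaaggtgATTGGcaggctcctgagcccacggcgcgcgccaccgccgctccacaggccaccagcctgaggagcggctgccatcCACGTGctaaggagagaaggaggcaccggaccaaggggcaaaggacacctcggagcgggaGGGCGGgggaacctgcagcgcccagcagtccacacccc

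The *Ppard* stretch held GC boxes at -163 and -93 and a CCAAT box at -117 from the RefSeq start, and the *Mlxipl* stretch held GC boxes at -188 and -38, a CCAAT box at -173 and an E-box, the core letters to which ChREBP and many other factors bind, at -98. GC boxes were present in 35.7%, CCAAT boxes in 37.4% and E-boxes in 7.15% of all 32851 promoter windows of the same table. Those windows have 300 bases, whereas the printed stretches have 196 (*Ppard*) and 250 (*Mlxipl*), so the lengths are unlike. The full *Ppard* window held a further GC box at -29. The nuclear receptor motif AGGTCA, present in 16.3% of all windows, and the sterol element TCACNCCAC, present in 1.24%, were not found in either stretch. A further RefSeq window of *Mlxipl*, at a start inside the gene, held the sterol element at -136. These matches describe letters only.

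*Rxra* (chr2:27676440-27762957, plus strand) encodes an RXR partner of PPARs and LXRs. Its SD within groups was 0.21 on the log2 scale, against a median of 0.23 for genes with a mean of at least 1 CPM. *Rxra* measured 62.5, 74.3, 55.7 and 61.2 CPM in ND mice, 79.2, 78.9, 53.7 and 63.1 CPM in HFD mice, and 74.4, 75.4, 59.7 and 64.2 CPM in Vasc mice. In HFD and Vasc mice the libraries numbered 1 and 2 were the high ones, the reverse of *Ppard*, and the groups overlapped. Its log2 fold change was 0.11 ± 0.15 in HFD versus ND (edgeR, adjusted p = 0.688) and -0.01 ± 0.14 in Vasc versus HFD mice (edgeR, adjusted p = 0.9997), with intervals from 0.858-fold to 1.35-fold and from 0.796-fold to 1.25-fold.

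The LXR genes had the smallest spread within groups of all members, with SDs of 0.15 (*Nr1h2*) and 0.09 (*Nr1h3*) on the log2 scale. *Nr1h2* (chr7:44549616-44553951, minus strand) measured 67.8, 95.02, 92.9 and 97.8 CPM in ND mice, 86.7, 90.5, 87.5 and 92.4 CPM in HFD mice, and 87.3, 84.3, 97.0 and 94.4 CPM in Vasc mice. All libraries except ND replicate 2 lay between 84.3 and 97.8 CPM. The 95% interval was 0.850-fold to 1.19-fold in HFD versus ND and 0.911-fold to 1.14-fold in Vasc versus HFD mice, the latter the tightest limits of any member in that comparison (log2 fold changes 0.01 ± 0.11 and 0.02 ± 0.07).

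*Nr1h3* (chr2:91184061-91202834, minus strand), which encodes LXRα, measured 20.5, 24.9, 21.6 and 22.4 CPM in ND mice, 21.7, 23.1, 20.5 and 20.7 CPM in HFD mice, and 20.99, 20.4, 22.1 and 21.3 CPM in Vasc mice. The 12 libraries differed by a factor of at most 1.22, and its SD within groups was larger than that of only 4.77% of genes. In HFD versus ND mice its log2 fold change was -0.06 ± 0.10 (edgeR, adjusted p = 0.731), with an interval from 0.818-fold to 1.12-fold.

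*Srebf1* (chr11:60199089-60222581, minus strand), whose transcripts encode SREBP-1a and SREBP-1c, was the most abundant member. It measured 228.0, 252, 185 and 173 CPM in ND mice, 208, 174, 167 and 174 CPM in HFD mice, and 189, 199.8, 153 and 155 CPM in Vasc mice. The highest levels belonged to 2 ND mice, while the other ND mice lay within the range of both other groups. Its log2 fold change was -0.22 ± 0.14 in HFD versus ND (edgeR, adjusted p = 0.343) and -0.27 ± 0.14 in Vasc versus ND mice (edgeR, adjusted p = 0.418), and the intervals, from 0.689-fold to 1.06-fold and from 0.666-fold to 1.04-fold, held mostly lower levels. The value was negative under every alternative in these comparisons, and none passed the threshold. *Srebf1* and the opposite-strand gene *Rai1* overlap, and the authors counted with the strand of the reads.

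*Mlxipl* (chr5:135089890-135138382, plus strand) was expressed at a low level. It measured 3.95, 4.67, 3.61 and 3.99 CPM in ND mice, 4.58, 3.77, 3.67 and 4.996 CPM in HFD mice, and 3.58, 3.37, 3.61 and 3.31 CPM in Vasc mice. The 4 Vasc libraries were all lower than the 4 HFD libraries, although the gap between the nearest of them (3.61 and 3.67 CPM) was small. The log2 fold change in Vasc versus HFD mice was -0.29 ± 0.16, with an interval from 0.632-fold to 1.05-fold (edgeR, adjusted p = 0.9997). In HFD versus ND mice it was 0.06 ± 0.17 (edgeR, adjusted p = 0.862).

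The PGC-1 coactivators were close to the limit of detection in this tissue. *Ppargc1a* (chr5:51454250-51567726, minus strand) measured 1.07, 0.86, 0.89 and 0.74 CPM in ND mice, 1.04, 0.74, 0.46 and 0.75 CPM in HFD mice, and 0.80, 0.40, 1.31 and 0.39 CPM in Vasc mice. *Ppargc1b* (chr18:61298136-61400431, minus strand) measured 0.70, 0.34, 0.27 and 0.12 CPM in ND mice, 0.30, 0.70, 0.10 and 0.16 CPM in HFD mice, and 0.45, 0.37, 0.24 and 0.15 CPM in Vasc mice. For *Ppargc1a* the lowest libraries were Vasc and HFD ones, while every group held high and low libraries for *Ppargc1b*, and the groups overlapped for both genes. The interval for *Ppargc1b* in HFD versus ND mice, from 0.309-fold to 2.46-fold, could not exclude a change of 2-fold in either direction, and that for *Ppargc1a* ran from 0.537-fold to 1.30-fold.

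**Figure D2:**
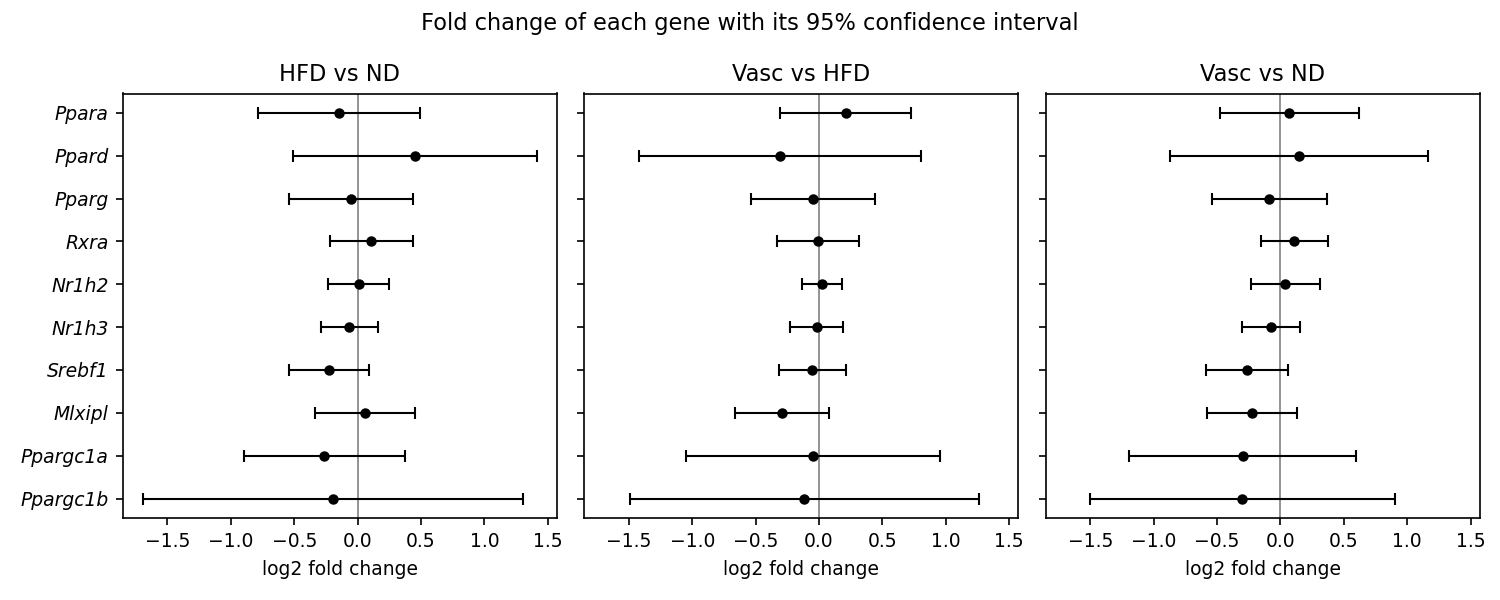
Log2 fold change of each of the 10 genes (points) with its 95% confidence interval (bars) in HFD versus ND, Vasc versus HFD and Vasc versus ND mice, each from 4 against 4 libraries. Every interval includes 0, and the intervals are narrowest for *Nr1h2* or *Nr1h3* and widest for *Ppargc1b* and *Ppard*.

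Other receptors of the same families and the proteins that work with the members were measured next. Of 12 further receptors, 7 were tested in HFD versus ND mice, with 5 above 0 (median log2 fold change 0.12) and none called by edgeR. *Nr1h4*, the bile acid receptor FXR, had the lowest p of them, with 24.1, 16.5, 14.3 and 13.8 CPM in ND mice and 27.6, 35.1, 28.5 and 24.4 CPM in HFD mice. Its groups did not overlap, and its log2 fold change was 0.74 ± 0.21 (edgeR, adjusted p = 0.0874, and DESeq2, adjusted p = 0.00924). The 5 receptors left out, *Rxrg*, *Esrrb*, *Hnf4a*, *Nr1i2* and *Nr1i3*, had group means of at most 0.270 CPM.

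All 20 corepressors, coactivators and partners of SREBP and ChREBP were tested, 17 of them with a log2 fold change above 0 in HFD versus ND mice (median 0.16). None was called by edgeR, and DESeq2 called 5 higher and 2 lower, against 12.9% of all genes. *Med1*, a Mediator subunit that contacts liganded nuclear receptors, had the lowest p (log2 fold change 0.44 ± 0.10, edgeR adjusted p = 0.0598). In Vasc versus HFD mice, 7 of the 20 were above 0 (median -0.07), and the lowest p belonged to *Lpin1* (0.29 ± 0.21, edgeR adjusted p = 0.9997), which encodes lipin 1, a phosphatidate phosphatase and coregulator.

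While the regulators themselves did not pass the test, some of the genes they are known to control did in HFD versus ND mice. The target lists were chosen with earlier results of these data known, so their shares beside those of all genes are a description only. Against 48.2% of all genes with a log2 fold change above 0 and 1.45% called, 19 of the 21 tested PPARα and PPARδ target genes were above 0 (median 0.40), and 5 of the 21 rose. Among them were the fatty acid oxidation genes *Hadhb*, *Acadl* and *Cpt2*, and *Plin2*, which encodes a lipid droplet coat protein. *Plin2* went from 274.8, 341, 304.8 and 333 CPM in ND mice to 424, 456, 432 and 459 CPM in HFD mice. No HFD library was as low as any ND library, and the log2 fold change was 0.49 ± 0.08 (edgeR, adjusted p = 0.0398). *Cpt2*, *Acadl* and *Hadhb* rose by 0.46, 0.59 and 0.74 on the log2 scale (edgeR, adjusted p = 0.0418, 0.0497 and 0.0476), and 10 of the 21 genes had groups that did not overlap, all of them higher in HFD mice. DESeq2 called 10 of the list, all higher. Of all genes, 13.5% had groups that did not overlap and DESeq2 called 12.9%. Other genes of the list, named after their values were seen, had similar means in ND and HFD mice. Examples were *Pdk4* (8.72 and 9.44 CPM), *Vnn1* (18.93 and 18.92 CPM), *Acot1* (5.52 and 5.79 CPM) and *Ehhadh* (4.74 and 5.15 CPM). *Ucp3* was lower in HFD mice, at 1.17 CPM against 1.84 CPM in ND mice. In the same comparison all 10 adrenocortical markers were above 0 (median 0.50) and all 8 chromaffin markers below 0 (median -1.24), with none called by edgeR. DESeq2 called 2 of the 10 adrenocortical markers, both higher, and 3 of the 8 chromaffin markers, all lower. Groups did not overlap for 2 of the adrenocortical and 0 of the chromaffin markers. The part of these markers in the values of the list was not tested.

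Genes activated by LXR lay in the opposite direction. Of 11 tested, 3 were above 0 (median -0.64), and 3 fell, namely *Pltp*, which encodes phospholipid transfer protein, *Abcg1*, which encodes a cholesterol exporter, and *Apoe*. *Pltp* measured 52.6, 60.03, 47.6 and 71.3 CPM in ND mice and 28.7, 23.4, 22.5 and 15.5 CPM in HFD mice. The HFD libraries were all below the lowest ND library, and the log2 fold change was -1.37 ± 0.19 (edgeR, adjusted p = 0.0376). *Abcg1* (-0.92 ± 0.15, edgeR adjusted p = 0.0384) and *Apoe* (-0.91 ± 0.17, edgeR adjusted p = 0.0441) fell in the same way. Groups did not overlap for 7 of the 11 genes, all lower in HFD mice, against 13.5% of all genes. DESeq2 called 7 of the list, all lower, against 12.9% of all genes.

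Some macrophage markers also fell in HFD mice. The 11 markers summed to 739 to 1109 CPM in ND, 529 to 639 CPM in HFD and 575 to 712 CPM in Vasc mice, and 4 of the 10 tested (*Cd68*, *C1qa*, *C1qc* and *Lyz2*) fell in HFD versus ND mice, by 0.74 to 1.25 on the log2 scale. Of the others, *C1qb* was at -0.63 (adjusted p = 0.0553 by edgeR and 0.00423 by DESeq2), *Adgre1* at -0.48 and *Csf1r* at -0.11. A further 3 of the 10 were above 0 (*Mrc1* at 0.24, *Mertk* at 0.22 and *Cd163* at 0.11). EdgeR called none of these others, and it called 1.45% of all genes. DESeq2 called 5 of the 10, all lower, against 12.9% of all genes. Groups did not overlap for 5 of the 10, all lower, against 13.5% of all genes. *Clec4f* was at 0 in all ND and HFD libraries. With the mean of these markers as a covariate, no gene of any list passed (0 of 15909 genes, 3564 with an unadjusted p below 0.05), the log2 fold changes were -0.99 for *Pltp*, -0.74 for *Abcg1* and -0.37 for *Apoe*, and the median of the LXR list was -0.58. The values of called genes in the other lists were 0.54 for *Cpt2*, 1.06 for *Hadhb*, 0.82 for *Acadl*, 0.62 for *Plin2*, 1.68 for *Plin4*, 0.71 for *Acsl1* and 2.10 for *Gpam*, and the median of the PPARα and PPARδ list was 0.56. The covariate was the mean of log2 levels, a different quantity from the marker sums in CPM. Those sums did not overlap between the ND and HFD groups, so that by them macrophage content and diet cannot be told apart.

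**Figure D3:**
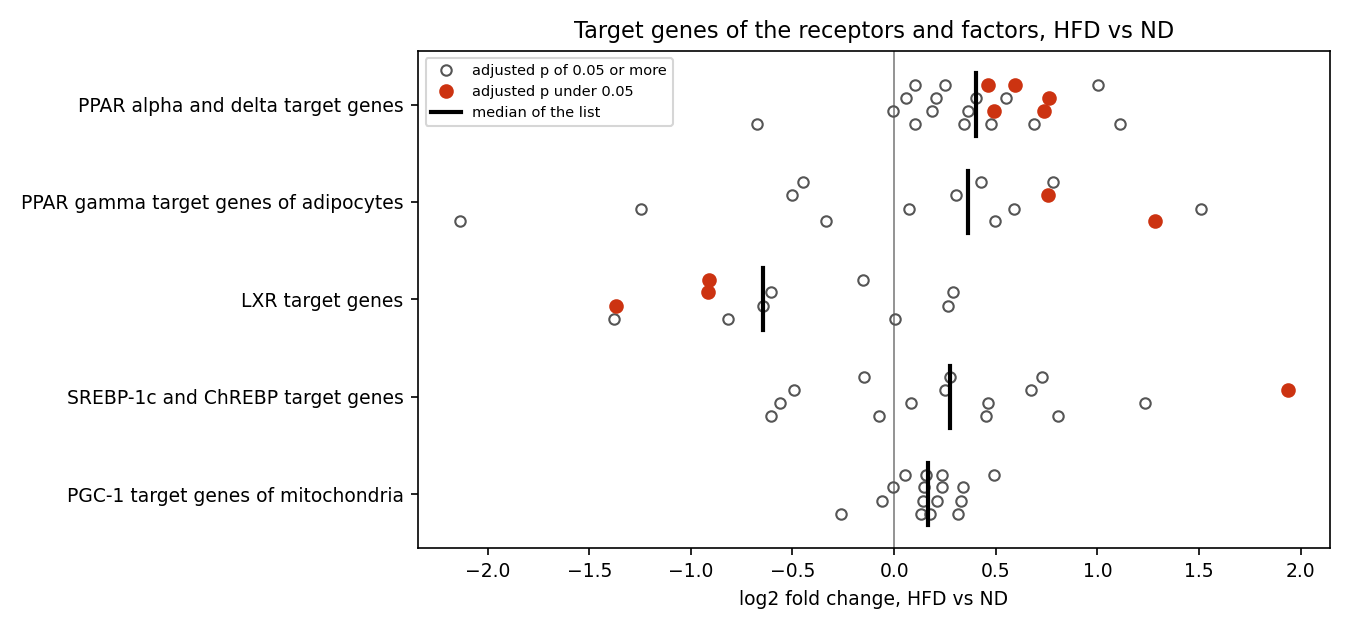
Log2 fold change in HFD versus ND mice (horizontal axis) of each tested target gene of PPARα and PPARδ, PPARγ, LXR, SREBP-1c and ChREBP, and PGC-1 (rows), with filled points for genes with an adjusted p under 0.05 and bars for the median of each list. The PPARα and PPARδ list lies mostly to the right of 0 (median 0.40) and the LXR list mostly to the left (median -0.64).

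The other target lists were more mixed. Of the 14 adipocyte genes controlled by PPARγ, 9 were above 0 (median 0.37), and *Plin4*, a lipid droplet gene (1.29 ± 0.23, edgeR adjusted p = 0.0400), and *Acsl1*, which activates long-chain fatty acids (0.76 ± 0.09, edgeR adjusted p = 0.0293), rose. DESeq2 called 3 of the list higher and 1 lower, against 12.9% of all genes called. The lower one was *Cfd*, the adipocyte gene for complement factor D, whose log2 fold change of -2.14 ± 0.55 was the largest in size of the list (adjusted p = 0.0760 by edgeR and 0.00124 by DESeq2). *Cebpa* was at -0.34 ± 0.13 without overlap of the groups (edgeR, adjusted p = 0.171). *Plin4* measured 3.53 to 6.81 CPM in ND and 10.4 to 15.2 CPM in HFD mice. Of the 14, 6 are also adipocyte markers, and the adipocyte sums were higher in HFD than in most ND libraries, as given above. The 9 adipocyte markers were split in HFD versus ND mice, with none called by edgeR. DESeq2 called 2 of the 9 higher and 1 lower, against 12.9% of all genes. On the log2 scale 6 of the 9 were above 0. Among them were *Lep* at 3.19 (DESeq2, adjusted p = 5.26e-05), whose groups did not overlap, and *Cidec* at 1.51 (DESeq2, adjusted p = 0.0377). The 3 below 0 were *Cfd* at -2.14, *Retn* at -1.25 and *Adrb3* at -0.38. With the adipocyte markers as a covariate, the values were 1.33 for *Plin4* (edgeR, adjusted p = 0.0170) and 0.74 for *Acsl1* (edgeR, adjusted p = 0.0143).

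Of 15 tested targets of SREBP-1c and ChREBP, 10 were above 0 (median 0.27) and *Gpam* rose. This gene encodes the mitochondrial enzyme that starts triglyceride synthesis, and it measured 12.9, 20.3, 10.3 and 10.3 CPM in ND mice and 39.6, 92.3, 32.4 and 43.5 CPM in HFD mice. Every HFD library was above every ND library (1.94 ± 0.36, edgeR adjusted p = 0.0450). DESeq2 called 4 of the list higher and 1 lower, against 12.9% of all genes called. *Gpam* rose whereas *Srebf1* and *Mlxipl* had log2 fold changes of -0.22 and 0.06. Other genes of the list, named after their values were seen, were spread on both sides of 0. *Fads2*, a fatty acid desaturase gene, had 1.23 ± 0.32 (adjusted p = 0.0781 by edgeR and 0.00562 by DESeq2) and *Acly*, for ATP citrate lyase, 0.73 ± 0.21 (0.0951 and 0.0264). *Me1*, for malic enzyme, had 0.46 ± 0.14 (adjusted p = 0.105 by edgeR and 0.0470 by DESeq2), *Thrsp* -0.61 ± 0.14 (0.0626 and 0.00305) and *Fasn*, the fatty acid synthase gene, -0.15 ± 0.19 (0.667 and 0.724).

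Mitochondrial targets of the PGC-1 coactivators were above 0 for 13 of 16 genes (median 0.17), with none called by edgeR. DESeq2 called 2 of the 16, both higher, against 12.9% of all genes. Groups did not overlap for 2 of the 16, both higher, against 13.5% of all genes. The lowest p was that of *Mfn2*, which encodes the outer membrane fusion protein mitofusin 2 (0.49 ± 0.11, edgeR adjusted p = 0.0574). Calls in all lists were close to the threshold. Leaving out single mice removed them in most fits, since no gene at all passed in 6 of the 8, and the exceptions were the fits without HFD replicate 1 (918 genes) and without ND replicate 2 (78 genes). The log2 fold changes of the called target genes kept their sign in all 8 fits.

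In Vasc versus HFD mice, no target gene passed the test. The medians were -0.06 for PPARα and PPARδ targets (6 of 21 above 0), -0.10 for PPARγ targets (5 of 14), 0.01 for LXR targets (6 of 11), -0.19 for SREBP-1c and ChREBP targets (2 of 15) and -0.04 for PGC-1 targets (4 of 16), against 0.00 for all genes. The 7 receptors of the same families had a median of -0.01 (3 above 0, lowest p for *Rarg*). The lowest p-values in the target lists were those of *Plin2*, *Cfd*, *Lpcat3*, *Acaca* and *Idh3a*.

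*Plin2* measured 392, 407, 326 and 346 CPM in Vasc mice against 424, 456, 432 and 459 CPM in HFD mice, without overlap (-0.27 ± 0.09, edgeR adjusted p = 0.9997). *Lpcat3*, which remodels phospholipids towards polyunsaturated chains, had a log2 fold change of -0.35 ± 0.14 (edgeR, adjusted p = 0.9997). *Cfd* had 1.33 ± 0.58, *Acaca*, for acetyl-CoA carboxylase, -0.23 ± 0.13, and *Idh3a*, a subunit of isocitrate dehydrogenase, -0.13 ± 0.08.

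In Vasc versus ND mice the lists had medians of the same sign as in HFD versus ND mice, without any call by edgeR. The PPARα and PPARδ targets had a median of 0.31 (19 of 21 above 0, 8 not overlapping and all higher), and the LXR targets had a median of -0.60 (1 of 11 above 0, 5 not overlapping and all lower). DESeq2 called 6 of the former, all higher, and 4 of the latter, all lower. Of all genes, 7.73% had groups that did not overlap and DESeq2 called 2.99%. *Pltp* had -1.24 ± 0.18 (edgeR, adjusted p = 0.153) and *Acsl1* 0.61 ± 0.08 (edgeR, adjusted p = 0.153). These values share the ND libraries with HFD versus ND mice and are given side by side only.

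The variation of *Ppard* among mice was shared by many genes. Over the 12 libraries, the log2 levels of 475 of 13458 other genes with a mean of at least 1 CPM had a Pearson correlation of 0.9 or more with *Ppard*, and 318 had one of -0.9 or less. The nearest were *Sf1*, a splicing factor (r = 0.992), *Hspa4*, a chaperone (0.992), and *Bzw1* (0.991). After subtraction of group means, 882 genes reached 0.9, so that the pattern lay within the diets. After the same subtraction *Ppargc1b* had 159 genes at 0.9 or more and 173 at -0.9 or less, and no other member had more than 64 of either. These correlations over 12 libraries are a description, and all genes of a library share its depth, dissection and RNA.

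Some of the 10 adrenocortical markers followed the same order and others did not. *Nr5a1*, the master regulator of the steroidogenic lineage, measured 319, 681, 767 and 1161 CPM in ND mice, 628, 655, 1261 and 1203 CPM in HFD mice, and 688, 491, 974.5 and 1254 CPM in Vasc mice. ND replicate 2 and Vasc replicate 2 were the lowest libraries for *Nr5a1* as they were for *Ppard*. The correlation with *Ppard* was 0.945 for *Nr5a1*, 0.975 for *Fdx1*, which supplies electrons to mitochondrial steroid hydroxylases, 0.841 for *Star*, which brings cholesterol into mitochondria, and 0.862 for *Scarb1*, the HDL receptor. It was 0.653 to 0.827 for *Cyp11a1*, *Cyp11b1*, *Cyp21a1* and *Akr1b7*, but 0.269 for *Hsd3b1* and 0.16 for *Mc2r*, the ACTH receptor. *Nr5a1*, *Fdx1* and *Star* were singled out for the plot after their values were seen. *Ppargc1b* (-0.866), *Pparg* (-0.789) and *Srebf1* (-0.638) varied against *Ppard*. The adrenocortical marker sums of replicates 1 to 4 were 62370, 78620, 111400 and 107900 CPM in HFD mice. In Vasc mice they were 78500, 65690, 84550 and 103200 CPM, so that replicates 3 and 4 were the higher ones in both groups. The chromaffin sums did not split in this way, with 9633, 2980, 8243 and 3067 CPM in HFD replicates 1 to 4. The part of either cell type in the pattern was not tested.

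**Figure D4:**
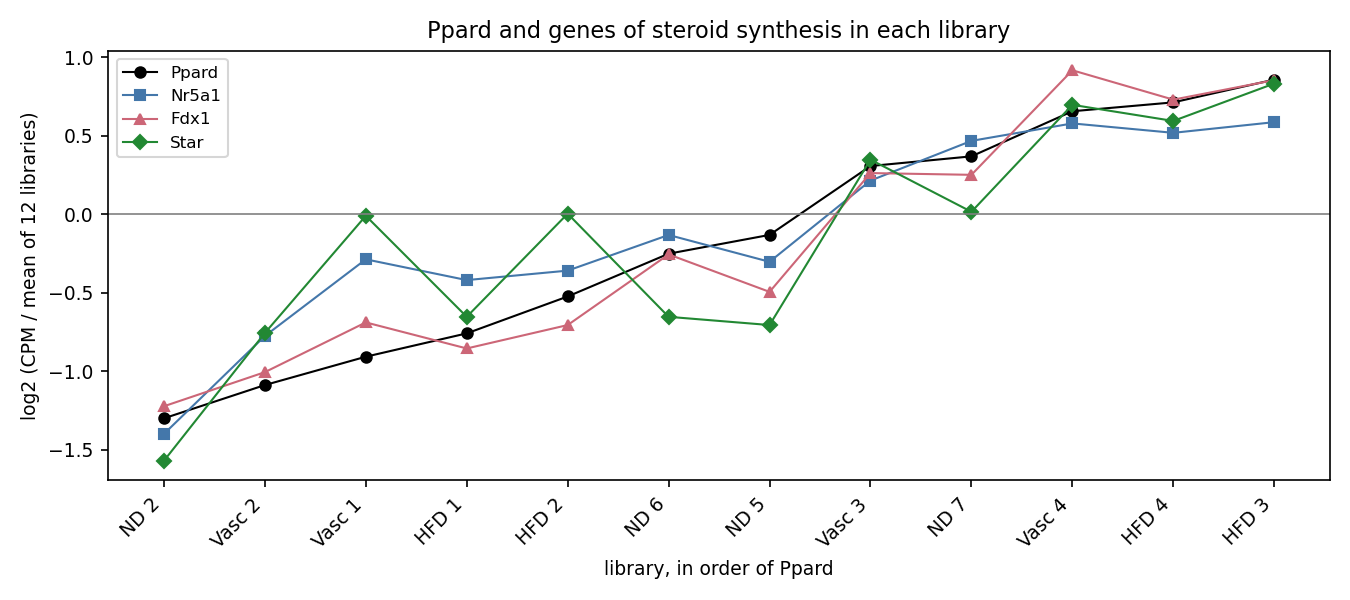
Log2 of the CPM over the mean of the 12 libraries (vertical axis) for *Ppard*, *Nr5a1*, *Fdx1* and *Star* in each library, ordered by *Ppard* (horizontal axis). The 4 genes are lowest or near lowest in ND replicate 2 and highest in Vasc replicate 4 and HFD replicates 3 and 4, and libraries of all diets are mixed along the order.

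The genes most like each of the other members, by the highest correlation over the 12 libraries, were *Synj2* (0.934), *2310015A10Rik* and *Cep120* for *Ppara*, *Slc36a2* (0.9), *Igsf10* and *Saxo2* for *Pparg*, and *Mtmr3* (0.957), *Crbn* and *Heatr6* for *Rxra*. They were *Rab43* (0.957), *Rcc2* and *Naprt* for *Nr1h2*, and *Parp14* (0.904), *Lama1* and *Hsph1* for *Nr1h3*. For the lipogenic factors they were *St6galnac4* (0.886), *Gpr75* and *Adcy2* with *Srebf1*, and *Mgmt* (0.915), *Dll4* and *Fam13b* with *Mlxipl*. *Maml2* (0.809), *Gxylt2* and *2810410L24Rik* were nearest to *Ppargc1a*, and *Pth1r* (0.947), *Wdr25* and *1110059E24Rik* to *Ppargc1b*. Each is the highest of 13458 or 13459 correlations.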

How the data were processed

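Total RNA of the adrenal cortex was sequenced from strand-specific libraries. The authors trimmed reads with cutadapt, aligned them to GRCm38 with STAR and deposited raw read counts per gene made with HTSeq 0.6.1p1 on GENCODE M12 genes. Symbols, coordinates and exon lengths came from GENCODE M21 (49326 of 49585 identifiers matched). Library totals were 34785979 to 67295963 counts, and no pair of the 66 library pairs was a copy. Groups and replicate numbers follow the labels, which number ND mice 2, 5, 6 and 7 and the other groups 1 to 4.

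CPM were scaled by TMM (factors 0.883 to 1.14). Each pair of groups had its own quasi-likelihood fit (robust) in edgeR 4.0.16 under R 4.3.3, on genes kept by filterByExpr with min.count 10, and p-values were adjusted by Benjamini-Hochberg and called under 0.05. The study used DESeq2, which was kept as an alternative (version 1.42.0, Wald test). The others were DESeq2 size factors, library totals, no filter or 10 counts in every library, all 12 libraries in 1 fit, adipocyte or macrophage markers as a covariate, leaving out each library, and, for Vasc versus HFD mice, the replicate number as a block. For numbers 1 to 4, the HFD and the Vasc mouse deviated from their groups with correlations of 0.254, 0.122, 0.354 and 0.654. HFD replicate 1 reached 0.621 with Vasc replicate 2, and HFD replicate 2 reached 0.474 with Vasc replicate 1. The labels do not say what the numbers denote. The main fit did not treat them as pairs, and only the replicate block did. The test was checked on simulated data.

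The members, the pathway lists and the marker lists were chosen with earlier results of these data known. Named genes were the members, all called genes of a list where these were 6 or fewer, otherwise the gene of the list with the lowest p, and for each member the 3 genes most correlated over the 12 libraries (log2 CPM with a prior count of 2, mean of at least 1 CPM), except that 1 called gene of the PPARα and PPARδ list is not reported here. Further marker lists summed to 767 to 1357 CPM (endothelial cells), 208 to 512 CPM (fibroblasts and capsule), 4.32 to 29.3 CPM (brown adipocytes), 0.0950 to 15.0 CPM (hepatocytes, highest in Vasc replicate 4) and 0.244 to 0.511 CPM (skeletal muscle).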

Additional observations from a re-analysis of the deposited data

Results flagged for a closer look

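*Nr1h2* in ND replicate 2 stood apart from the other ND libraries, at 67.8 CPM against 92.9 to 97.8 CPM (Dixon ratio 0.836, past the 95% limit for 4 libraries). It was the only such library among 30 sets of 4 libraries examined, and chance flags about 1 in 20. The same library was the lowest of its group for *Ppara* (1.90 CPM), *Ppard* (36.2 CPM) and *Nr1h3* (20.5 CPM). It was the highest of its group for *Pparg* (2.65 CPM), *Ppargc1a* (1.07 CPM) and *Ppargc1b* (0.70 CPM). Without ND replicate 2, the log2 fold change of *Nr1h2* in HFD versus ND mice was -0.09, against 0.01 with it.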

How the results depend on the processing

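No member passed the threshold under any alternative, in any comparison. Counts over all genes did move. For HFD versus ND mice, 230 genes were called, against 2049 with DESeq2, 84 with library totals, which shift the median of all genes to -0.11, 556 with all 12 libraries in 1 fit, 2466 with adipocyte markers and 0 with macrophage markers as a covariate, and 0 to 918 when 1 library was left out (918 without HFD replicate 1, 78 without ND replicate 2, 0 in the other fits). DESeq2 called 6 genes in Vasc versus HFD and 477 in Vasc versus ND mice, where the fit of all libraries called 2, the adipocyte covariate 1 and single fits without a library 0 to 1 (1 without Vasc replicate 2), in place of 0. The cause was not tested.

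Under the replicate block, 0 genes were called in Vasc versus HFD mice and no call changed. *Rxra* (0.0057) and *Ppargc1b* (0.096) changed sign.

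Signs of members near 0 also turned elsewhere, on the log2 scale. With library totals, *Nr1h2* (-0.084) and *Mlxipl* (-0.039) did in HFD versus ND, *Pparg* (0.0067), *Rxra* (0.044), *Nr1h3* (0.036) and *Srebf1* (0.0091) in Vasc versus HFD, and *Nr1h2* (-0.0029) in Vasc versus ND mice. With macrophage markers, *Ppara* (0.24), *Nr1h3* (0.027) and *Mlxipl* (-0.0022) did in HFD versus ND, *Rxra* (0.015) and *Ppargc1a* (0.039) in Vasc versus HFD, and *Nr1h3* (0.045) in Vasc versus ND mice. *Ppara* was 0.023 with adipocyte markers and *Nr1h2* -0.00017 with 10 counts in every library, a filter that removed *Ppargc1b*, in HFD versus ND mice.

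Leaving out 1 library gave HFD versus ND ranges of -0.32 to 0.0145 for *Ppara*, -0.15 to 0.072 for *Pparg*, -0.092 to 0.051 for *Nr1h2*, -0.021 to 0.14 for *Mlxipl* and -0.96 to 0.38 for *Ppargc1b*. In Vasc versus HFD mice the ranges were -0.17 to 0.044 for *Pparg*, -0.11 to 0.070 for *Rxra*, -0.0083 to 0.058 for *Nr1h2*, -0.041 to 0.016 for *Nr1h3*, -0.12 to 0.024 for *Srebf1*, -0.52 to 0.17 for *Ppargc1a* and -0.40 to 0.65 for *Ppargc1b*. In Vasc versus ND mice they were -0.11 to 0.18 for *Ppara*, -0.21 to 0.42 for *Ppard*, -0.069 to 0.096 for *Nr1h2* and -0.58 to 0.26 for *Ppargc1b*.

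Depth limited the coactivators most, at 4 to 65 reads per library, and counting made up part of the error of *Ppara*, *Pparg* and *Mlxipl*, at 75 to 221 reads. The lists are curated from general knowledge, and a transcript level says nothing of receptor activity or ligand.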
